A study of Mus musculus with 32 samples.

Results

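This account concerns 8 mouse genes, Pcdh7, Emp2, Npy, Myo1e, Itgb7, Col18a1, Sdc1 and Pcp4l1, in bone marrow-derived macrophages with and without Trem2. They were chosen by name because they were among the genes with the largest falls in the knockout, and no numerical threshold was set for the choice. The 8 genes are 8 of 11244 genes with enough counts to be tested, in a table of 24885 identifiers, and each of the 8 passed the filter on low counts. Ordered by the log2 fold change of knockout against wild-type, from the most negative, they stood at places 31 to 174 of 11244 in low medium without LPS and at places 79 to 290 in normal medium without LPS. With LPS the places were 154 to 1675 for normal and 148 to 2052 for low medium. Differences between the genotypes in these genes are therefore given as descriptions, with no test.

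The data were RNA counts from 32 libraries of macrophages grown from mouse bone marrow, 4 in each of 8 groups. All groups shared the strain C57BL/6. The groups crossed genotype (wild-type, or the Trem2 knockout called T2KO by the submitters), M-CSF (low or normal, called low and normal medium below) and LPS (absent, or given at 10 ng/ml for 4 hours). M-CSF is a cytokine on which macrophages depend for survival, and LPS is a bacterial cell wall component that activates them. The overnight medium held 0.5% or 10% LCCM, and reading low as the smaller percentage is an inference, since the labels do not tie the 2 scales together. Whether libraries in a group are from different animals or cultures is not stated, so each p below measures the spread between these libraries, which may be technical.

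Trem2 is a surface receptor of macrophages and microglia that binds lipids and lipoproteins and signals through an adaptor with an activating motif. Adhesion receptors tie a cell to its neighbours and to the extracellular matrix: integrins and syndecans reach out to matrix proteins, and protocadherins bind partners on other cells. In macrophages these receptors act with the actin cytoskeleton in podosomes, small contact points at which the cell grips and degrades matrix. Of the 8 genes, Pcdh7 encodes a protocadherin, Itgb7 an integrin beta subunit, Sdc1 the heparan sulfate proteoglycan syndecan-1, Emp2 a tetraspan membrane protein, Col18a1 the basement membrane collagen that releases endostatin, and Myo1e a class I myosin that links membrane to actin. The name "adhesion and matrix genes" does not describe all 8: Npy encodes the secreted neuropeptide Y, and Pcp4l1 a small Pcp4-like protein.

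In the RefSeq annotation of build GRCm38.p6, the 8 genes lay on 8 different chromosomes, and none lay on chromosome 17, where Trem2 lies. Pcdh7 spanned chr5:57716145-58133236, Itgb7 chr15:102215994-102233405, Sdc1 chr12:8771396-8793716 and Emp2 chr16:10281749-10313968. Col18a1 spanned chr10:77052178-77166530, Myo1e chr9:70207350-70400067, Npy chr6:49822710-49829507 and Pcp4l1 chr1:171173264-171196268. RefSeq promoter windows of 300 bases, 250 before and 50 after a transcript start, were found for all 8 (9 windows, since Col18a1 has 2). The windows were searched on both strands for 8 short motifs named after the factors or elements they are associated with. The NF-kB letters, GGGA and CC with 4 bases of any kind between them, stood in the windows of Sdc1, Npy and Myo1e and in 20.7% of all 32851 promoters. The PU.1 letters GAGGAA stood in those of Sdc1 and Itgb7 (28.3% of all promoters), and the C/EBP letters TTGCNNAA in that of Sdc1 (10.8%). The GC box GGGCGG stood in those of Sdc1, Npy, Emp2 and Col18a1 (35.7%), and TATAAA in that of Pcp4l1, at the start site itself (13.6%). No member window held TGANTCA, the AP-1 letters (7.81% of all promoters), the IRF letters, GAAA and GAAA with 2 bases between (3.44%), or CACGTG, the E-box (7.15%). These matches describe letters only, and no binding was measured here. The 250 bases before the start of the 3 genes with NF-kB letters are shown. LPS signals through NF-kB, and levels of all 3 were higher with LPS in some conditions below, but a link between letters and levels was not tested. Each is given 5' to 3' on the strand of the gene, with the NF-kB, PU.1 and C/EBP letters on either strand in capitals. The windows are chr12:8771146-8771395 (plus strand) for Sdc1, chr6:49822460-49822709 (plus strand) for Npy and chr9:70207100-70207349 (plus strand) for Myo1e.
Sdc1: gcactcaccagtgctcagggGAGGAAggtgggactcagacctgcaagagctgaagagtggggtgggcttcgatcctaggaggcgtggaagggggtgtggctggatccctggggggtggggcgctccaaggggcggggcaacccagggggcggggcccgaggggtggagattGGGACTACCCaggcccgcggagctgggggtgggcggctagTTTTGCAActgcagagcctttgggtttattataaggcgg
Npy: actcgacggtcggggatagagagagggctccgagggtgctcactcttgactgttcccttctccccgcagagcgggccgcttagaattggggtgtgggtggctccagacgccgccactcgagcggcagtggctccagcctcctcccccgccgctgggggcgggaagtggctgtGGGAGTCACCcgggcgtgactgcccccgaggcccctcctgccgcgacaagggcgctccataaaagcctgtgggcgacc
Myo1e: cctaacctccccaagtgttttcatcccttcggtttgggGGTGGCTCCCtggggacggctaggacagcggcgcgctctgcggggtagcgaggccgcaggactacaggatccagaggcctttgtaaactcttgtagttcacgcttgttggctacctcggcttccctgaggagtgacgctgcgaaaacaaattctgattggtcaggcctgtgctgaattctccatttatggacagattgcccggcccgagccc
In Sdc1 the capitals mark, in order, the PU.1, NF-kB and C/EBP letters, the last of them on the reverse strand. In Npy they mark the NF-kB letters, and in Myo1e the NF-kB letters on the reverse strand. Pcdh7 and Col18a1, whose levels were also higher with LPS, had no NF-kB letters in their windows. Nor had Emp2, which was higher with LPS in the low-medium knockout.

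Total counts ranged from 3068863 to 15585423 per library (median 5596111), so that 3 counts, the most that a count of 0 allows, amounted to 0.192 to 0.978 CPM (counts scaled to library size). This floor uses total counts, without the scaling of the levels below. On the scale of those levels it is higher in low medium with LPS, where 4 Pcp4l1 counts in knockout library 4 were 1.94 CPM. Levels below are CPM scaled by TMM, a correction for library composition. In wild-type low medium, library 1 with LPS held 2414 Pcdh7 counts of 4547552, given as 799.8 CPM. Library 1 without LPS held 1640 of 6481139, given as 209 CPM. Relative to total counts, TMM thus raised levels in low medium with LPS and lowered those without it. Differences below that involve low medium with LPS depend on this scaling, and differences on total counts alone were not tested. Trem2 itself stood at a mean of 305 ± 46.7, 460.4 ± 70.1, 226 ± 26.2 and 332 ± 47.4 CPM in wild-type cells (normal medium, low medium, normal medium with LPS, low medium with LPS; SD, n = 4 in each). In the knockout it stood at 36.3 ± 4.96, 115 ± 13.9, 5.88 ± 2.28 and 6.01 ± 2.31 CPM in the same order. Every knockout library was below every wild-type library of its condition, with reads left in all knockout groups. The libraries were primed at the poly(A) tail and read 3' ends, so such reads do not show whether a whole Trem2 transcript was made. Their source was not tested. In most groups library 1 resembled 3 and library 2 resembled 4 more than other pairs did, with exceptions in wild-type cells without LPS in both media. A chi-square per degree of freedom over genes gave a median of 6.37 for these pairs and 27.6 for other pairs of a group. Both were above sampling noise, which cannot show whether the libraries of a pair are independent or technical. All 4 were kept as separate libraries, with sums of the pairs as an alternative. Of 10 macrophage markers all 10 were tested, and their summed level was 5293 to 12046 CPM, against at most 33.99, 7.15 and 9.99 CPM in any library for the dendritic, B and T or NK cell lists. Summed neutrophil markers were 175 to 202 CPM in wild-type and 272 to 332 CPM in knockout libraries of low medium, and monocyte markers were 843 to 870.4 and 1269 to 1352 CPM. With the edgeR test used throughout (quasi-likelihood, Benjamini-Hochberg adjusted p under 0.05 over all genes), 6 of 9 tested neutrophil markers and 3 of 6 monocyte markers were higher in the knockout there, and 1 monocyte marker was lower. Of all genes 16.7% passed there. With LPS in low medium the neutrophil sums were 252 to 319 and 474 to 634 CPM, and the monocyte sums 384 to 450.4 and 1142 to 1383 CPM. By the test 3 of 9 neutrophil markers were higher in the knockout there, and of 6 monocyte markers 1 was higher and 1 lower. Of 6 tested osteoclast markers 4 were lower and 1 higher, where 19.1% of all genes passed. Pax5 and Mzb1 of the B and plasma cell list were at 0 in all groups. Summed mast cell and basophil, fibroblast, endothelial, and erythroid and megakaryocyte markers reached 79.8, 23.1, 49.3 and 1666 CPM, on 1, 1, 3 and 2 tested genes, and in every genotype and medium all libraries with LPS were above all without it. In bulk libraries fewer cells of a type and less RNA per cell cannot be told apart. Marker sums also differed between the media: without LPS the monocyte sums were 139 to 198 CPM in wild-type and 174 to 207 CPM in knockout libraries of normal medium, below those of low medium given above. The neutrophil sums there were 69.4 to 90.3 and 77.9 to 86.98 CPM, and the macrophage sums 5293 to 5738 and 5306 to 6299.9 CPM, against 8912 to 10427 and 9278 to 11965 CPM in low medium. The part of these marker shifts in the genotype, LPS and medium differences below was not tested.

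Without Trem2 all 8 genes stood lower in all 4 conditions. In low medium without LPS the fitted log2 fold changes of knockout against wild-type ranged from -3.83 to -2.37 (median -2.83). In normal medium without LPS the median was -1.78, with LPS it was -1.06 in normal and -2.10 in low medium. The medians of all 11244 genes were -0.01, 0.07, 0.00 and -0.05 (normal, low, normal with LPS, low with LPS). All 4 knockout libraries were below all 4 wild-type libraries for 8 of 8 genes in normal medium (4.59% of all genes) and for 8 of 8 in low medium (10.3%). With LPS this held for 6 of 8 in normal medium (6.73%) and 5 of 8 in low medium (7.97%). Pcdh7 overlapped between the genotypes in both LPS conditions, Emp2 in normal medium with LPS, and Myo1e and Pcp4l1 in low medium with LPS. Because the genotype difference chose the genes, nothing is read from these counts.

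**Figure D1:**
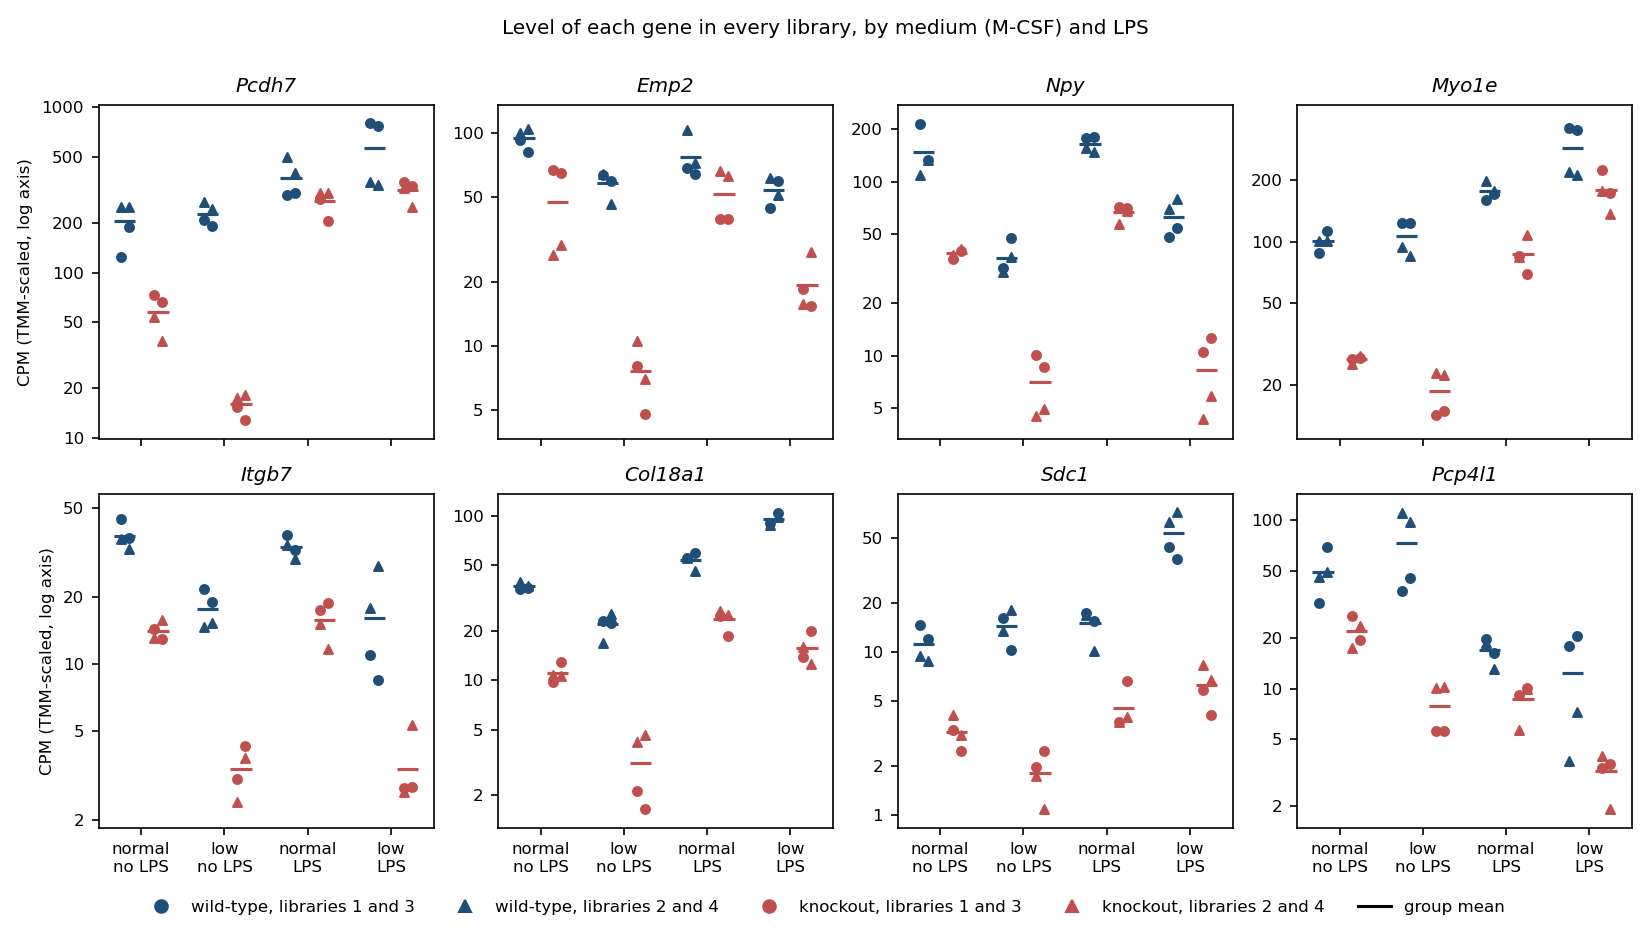
Level of the 8 genes in each of 32 libraries (CPM, TMM-scaled, log axis), blue for wild-type and red for Trem2 knockout, circles for libraries 1 and 3, triangles for libraries 2 and 4, and bars for group means. In low medium without LPS each knockout library was below each wild-type library for all 8 genes, as for Pcdh7, with group means of 15.96 and 228 CPM.

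**Figure D2:**
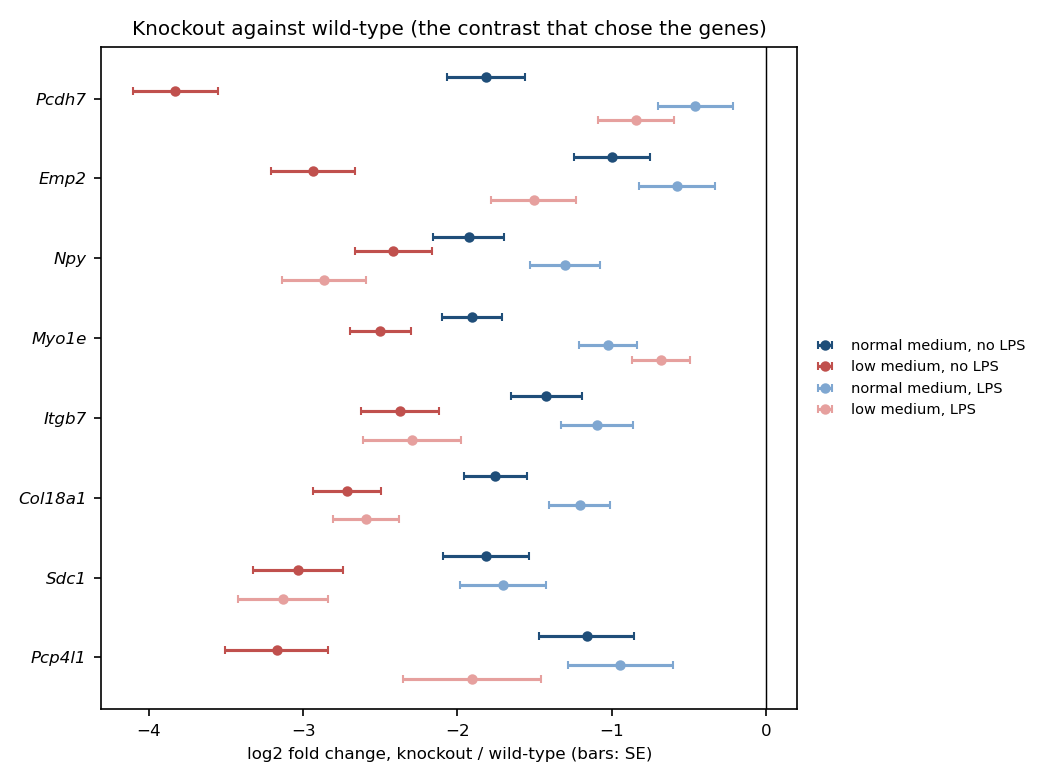
Fitted log2 fold change of knockout against wild-type for each gene in 4 conditions, with bars for the standard error (SE). The points for low medium without LPS lie between -3.83 and -2.37; with LPS, Pcdh7 lies nearest 0 in normal medium and Myo1e in low medium.

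LPS and the medium were compared within each genotype. The choice of genes did not use these contrasts, but it used the same libraries: a gene chosen for a low knockout value without LPS is favoured to read higher with LPS and, since the falls were largest in low medium, lower in that medium. Comparisons within the knockout are therefore described by their values and counts, with no p, and nothing is read from those counts. Wild-type comparisons are tested, although the same choice favours high wild-type values without LPS, and so a fall after LPS. LPS was followed by higher levels of 3 of 8 genes in wild-type cells in normal medium (Pcdh7, Myo1e, Col18a1) and by a lower level of 1 (Pcp4l1), where 36.1% of all genes passed the test (18.3% higher, 17.9% lower). In wild-type cells in low medium 5 rose (Pcdh7, Myo1e, Col18a1, Sdc1, Npy) and Pcp4l1 fell, against 60.7% of all genes (27% higher, 33.6% lower). In the knockout 4 were past the same threshold and higher in normal medium (Pcdh7, Myo1e, Col18a1, Npy; 42.7% of all genes passed, 20.9% higher and 21.8% lower) and 5 in low medium (Pcdh7, Myo1e, Col18a1, Sdc1, Emp2; 67.5% passed, 26.5% higher and 41% lower), and Pcp4l1 was lower in both. Itgb7 passed in none of these 4 comparisons, with values from -0.16 ± 0.22 to 0.17 ± 0.24 (log2 fold change ± SE). In low medium the median of all genes after LPS was -0.18 (wild-type) and -0.36 (knockout), and changes there can be read relative to it.

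**Figure D3:**
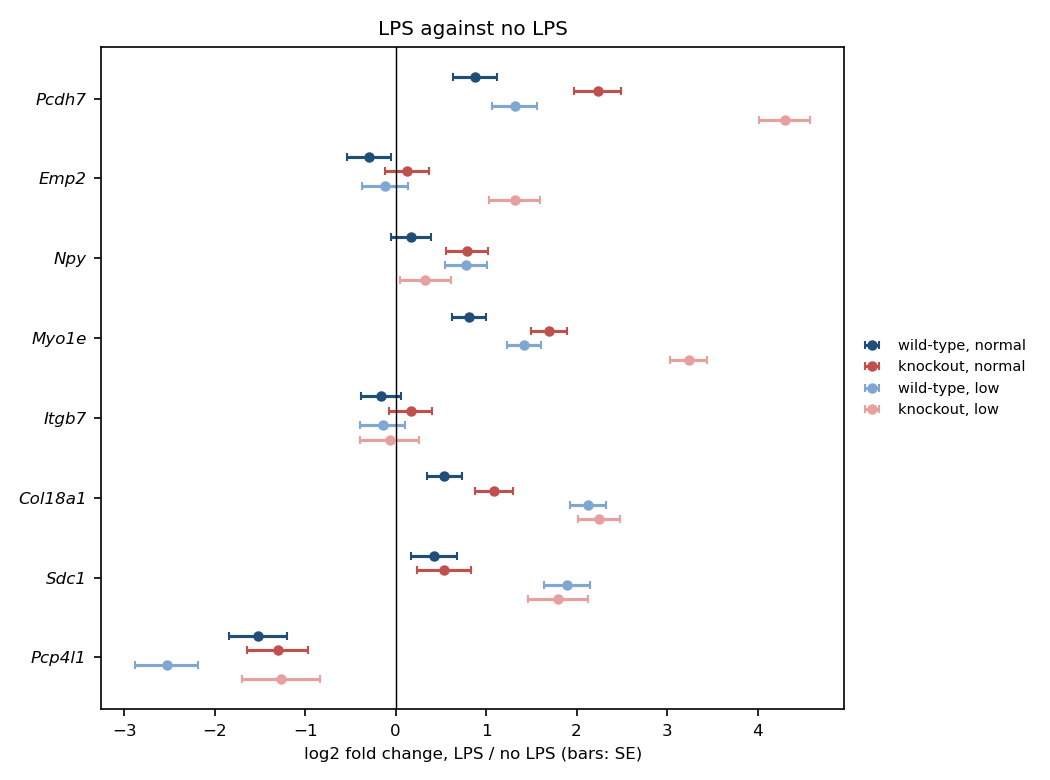
Fitted log2 fold change of LPS against no LPS (bars: SE) for each gene by genotype and medium. Pcdh7 and Myo1e lie to the right of 0 in all 4 comparisons, up to 4.30 for Pcdh7 in the low-medium knockout, Pcp4l1 lies to the left in all 4, and Itgb7 lies near 0.

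In wild-type cells without LPS 4 of 8 genes were lower in low medium (Npy, Itgb7, Col18a1, Emp2), where 44.3% of all genes passed the test and 21.9% were lower, and the other 4 did not pass, with values of 0.08 ± 0.19 to 0.57 ± 0.30. In knockout cells without LPS all 8 were past the threshold and lower, as the choice of genes favours, where 48.2% of all genes passed and 21.7% were lower, and their values ran from -2.64 ± 0.27 for Emp2 to -0.51 ± 0.19 for Myo1e. These counts compare each genotype with itself, and whether the medium response differed between the genotypes was not tested, because the genes were chosen by genotype. With LPS, 4 rose (Sdc1, Col18a1, Myo1e, Pcdh7) and 2 fell (Npy, Itgb7) in wild-type cells (45.6% of all genes passed, 21.4% higher and 24.2% lower), and 1 was higher (Myo1e) and 5 lower (Npy, Itgb7, Emp2, Pcp4l1, Col18a1) in the knockout (59.2% passed, 26.5% higher and 32.8% lower).

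**Figure D4:**
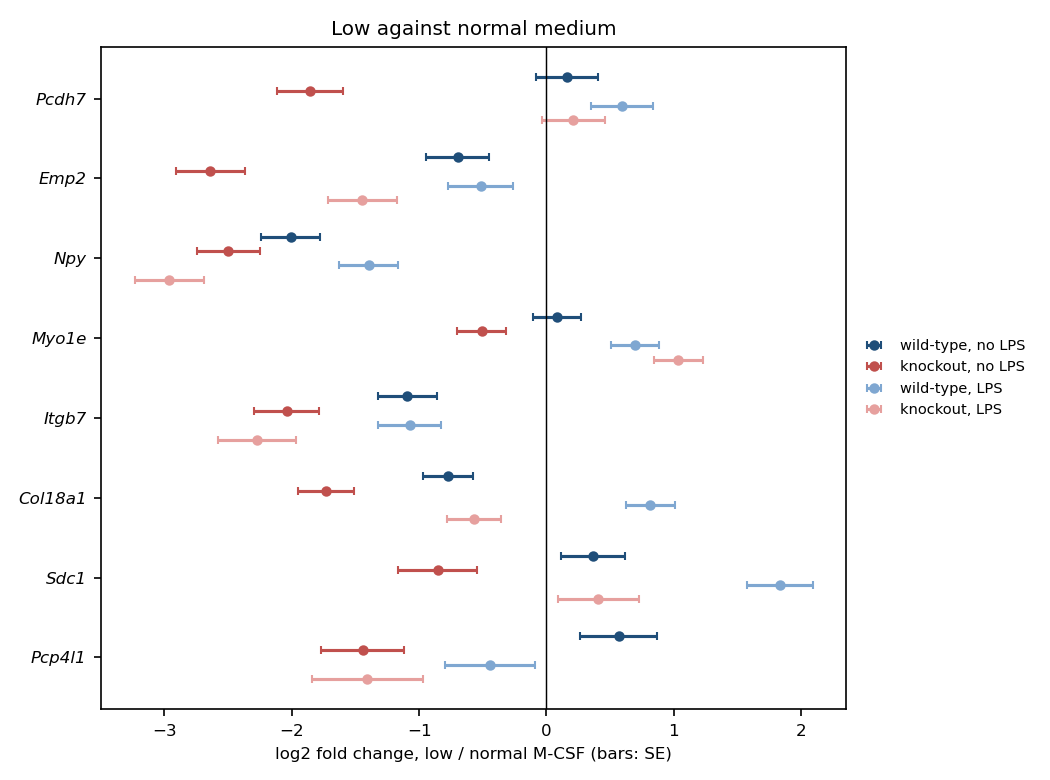
Fitted log2 fold change of low against normal medium (bars: SE) for each gene by genotype and LPS. Knockout points without LPS are below 0 for all 8 genes, and Npy and Itgb7 are below 0 in all 4 comparisons.

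A further comparison asked whether the LPS change differed between the media (low minus normal). In wild-type cells it was larger in low medium for 2 of 8 genes, Col18a1 and Sdc1 (23.6% of all genes passed, 10.7% higher and 12.8% lower), and in the knockout, where the choice favours it, 5 were past the threshold and higher, Pcdh7, Myo1e, Sdc1, Emp2 and Col18a1 (35.3% passed, 13.3% higher and 22% lower). Of all genes called in that last comparison 37.6% were higher, and 50.4% with RLE scaling. The values stand with each gene below.

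Pcdh7, the protocadherin, rose with LPS in wild-type cells in both media, and its knockout level was lowest in low medium without LPS. Without LPS its 4 libraries read 125, 251, 189.6 and 250.3 CPM in wild-type and 73.03, 53.9, 65.97 and 38.8 CPM in knockout cells in normal medium. In low medium they read 209, 269, 190.2 and 243 CPM in wild-type and 15.3, 17.5, 12.8 and 18.1 CPM in knockout cells. The knockout libraries were below the wild-type libraries in both media and lowest in low medium, 14.2-fold lower than wild-type in the fit, against 3.51-fold in normal medium. With LPS in normal medium they read 296, 501, 305 and 399 CPM in wild-type and 278, 305, 206 and 303 CPM in knockout cells. With LPS in low medium they read 799.8, 353, 776 and 337 CPM in wild-type and 353, 327, 335 and 249.6 CPM in knockout cells. The genotypes overlapped in both LPS conditions, and wild-type libraries 1 and 3 in low medium stood well above libraries 2 and 4. The LPS change was 0.88 ± 0.24 in wild-type cells in normal medium (adjusted p = 0.00413) and 1.31 ± 0.25 in low medium (adjusted p = 2.07e-05). In the knockout the change was 2.23 ± 0.26 in normal and 4.30 ± 0.28 in low medium, where all 4 libraries with LPS were above all 4 without it, and the difference between the media was 2.07 ± 0.35. The wild-type call in normal medium was lost when libraries 1 and 3, and 2 and 4, were summed in pairs (0.93, adjusted p = 0.0732). With LPS, wild-type Pcdh7 was higher in low medium by 0.60 ± 0.24 (adjusted p = 0.0439), a call lost when libraries 1, 3 or 4 of normal medium or 1 or 3 of low medium were left out in turn (0.38 to 0.62, adjusted p = 0.0614 to 0.229) and in the paired sums (0.58, adjusted p = 0.237). Annotated on the other strand at the 5' end of Pcdh7 is the transcript 4932441J04Rik, and how the authors' counting treated strand is not given in the sources used here.

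Itgb7, the integrin beta 7 subunit, pairs with alpha chains to bind gut addressin, VCAM-1 and E-cadherin. Its libraries without LPS read 44.6, 36.3, 36.9 and 32.9 CPM in wild-type and 14.4, 13.1, 13.01 and 15.8 CPM in knockout cells in normal medium. The low-medium libraries read 21.7, 14.7, 18.98 and 15.3 CPM in wild-type and 3.04, 2.40, 4.31 and 3.80 CPM in knockout cells. The low-medium knockout libraries held 20 to 70 counts each, and those with LPS 8 to 11, so their levels carry a wide counting error. With LPS the libraries read 38.02, 34.3, 32.5 and 29.7 CPM in wild-type and 17.5, 15.1, 18.7 and 11.6 CPM in knockout cells in normal medium. LPS in low medium gave 10.9, 17.8, 8.48 and 27.4 CPM in wild-type and 2.78, 2.67, 2.82 and 5.34 CPM in knockout cells. The genotypes did not overlap in any condition, and its wild-type level moved with the medium, while its LPS values did not pass the test. Low medium lowered Itgb7 in wild-type cells, with log2 changes of -1.09 ± 0.23 without LPS (adjusted p = 0.000183) and -1.07 ± 0.25 with it (adjusted p = 0.00052), and neither call was lost in any alternative tried. In the knockout the medium changes were -2.04 ± 0.25 and -2.27 ± 0.30.

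Sdc1 encodes syndecan-1, a cell surface proteoglycan whose heparan sulfate chains bind matrix proteins and growth factors. Its promoter, shown above, held all 3 kinds of capitals. Without LPS its libraries read 14.6, 9.54, 12.1 and 8.86 CPM in wild-type and 3.31, 4.10, 2.49 and 3.10 CPM in knockout cells in normal medium. Low-medium values were 16.2, 13.6, 10.4 and 18.1 CPM in wild-type and 1.98, 1.74, 2.48 and 1.09 CPM in knockout cells. The knockout libraries without LPS held 20 to 32 counts in normal and 13 to 27 counts in low medium. After LPS the values were 17.5, 16.9, 15.6 and 10.1 CPM in wild-type and 3.71, 3.71, 6.67 and 3.98 CPM in knockout cells in normal medium. After LPS in low medium the values were 44.4, 63.2, 37.2 and 72.3 CPM in wild-type and 5.87, 8.33, 4.10 and 6.80 CPM in knockout cells. The highest Sdc1 levels were the 4 wild-type libraries in low medium with LPS, above every other library in the series. The knockout stood 8.75-fold below them there. LPS raised Sdc1 in low medium by 1.90 ± 0.26 in wild-type cells (adjusted p = 5.62e-08), and the knockout value was 1.80 ± 0.33. In normal medium the LPS values were 0.42 ± 0.25 in wild-type (adjusted p = 0.194) and 0.53 ± 0.30 in knockout cells. The LPS change was larger in low than in normal medium by 1.47 ± 0.36 in wild-type cells (adjusted p = 0.00238, or 0.0617 with libraries summed in pairs). In the knockout that difference was 1.26 ± 0.44, and the change from normal to low medium without LPS was -0.85 ± 0.31.

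Emp2, a tetraspan protein of the PMP22 family that affects integrin trafficking, had its lowest levels in the low-medium knockout without LPS. Its libraries without LPS read 92.5, 99.96, 81.6 and 104 CPM in wild-type and 67.2, 26.6, 65.1 and 29.6 CPM in knockout cells in normal medium. For low medium the values were 63.7, 64.2, 59.1 and 46.2 CPM in wild-type and 8.05, 10.5, 4.77 and 7.005 CPM in knockout cells. In the knockout in normal medium libraries 1 and 3 stood above libraries 2 and 4, and all 4 below wild-type. LPS-treated libraries read 68.3, 103, 64.4 and 71.99 CPM in wild-type and 39.3, 66.2, 39.3 and 62.6 CPM in knockout cells in normal medium, where the genotypes overlapped. Low-medium cells given LPS read 44.4, 61.2, 59.4 and 50.9 CPM in wild-type and 18.5, 15.7, 15.4 and 27.7 CPM in knockout cells, with no overlap. The medium changes in the knockout were -2.64 ± 0.27 without LPS and -1.45 ± 0.27 with it. The wild-type fall without LPS, -0.70 ± 0.24 (adjusted p = 0.0196), was lost without library 4 of either medium (-0.62 and -0.57, adjusted p = 0.0586 and 0.085) and in the paired sums (-0.67, 0.153). With LPS in wild-type cells it was -0.52 ± 0.25 and did not pass (adjusted p = 0.0925), while a fit of those groups alone gave 0.0407. Wild-type Emp2 did not pass the LPS test in either medium, at -0.29 ± 0.24 in normal and -0.11 ± 0.25 in low medium. In the low-medium knockout the LPS change was 1.32 ± 0.28, above that in normal medium by 1.19 ± 0.37.

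Col18a1 encodes the alpha chain of collagen XVIII, a heparan sulfate-bearing basement membrane collagen. Without LPS its libraries read 36.04, 39.4, 36.3 and 37.4 CPM in wild-type and 9.72, 10.8, 12.8 and 10.7 CPM in knockout cells in normal medium. Readings in low medium were 22.8, 16.9, 22.3 and 25.3 CPM in wild-type and 2.13, 4.21, 1.65 and 4.67 CPM in knockout cells, the latter from 14 to 86 counts. The genotypes did not overlap in any condition. Given LPS, they read 55.2, 55.6, 59.4 and 46.3 CPM in wild-type and 24.7, 26.2, 18.5 and 24.9 CPM in knockout cells in normal medium. LPS-treated cells in low medium read 90.5, 88.4, 105 and 97.97 CPM in wild-type and 13.9, 15.99, 19.97 and 12.6 CPM in knockout cells. Wild-type libraries in low medium with LPS were the highest of all, while the same cells without LPS were lowest among wild-type groups. LPS raised Col18a1 in low medium by 2.13 ± 0.20 in wild-type cells (adjusted p = 1.63e-11), and the knockout value was 2.25 ± 0.23, with all 4 libraries of each above all those without LPS. In normal medium the LPS changes were 0.54 ± 0.19 in wild-type (adjusted p = 0.0248) and 1.09 ± 0.21 in knockout cells. The wild-type call was lost with RLE scaling (adjusted p = 0.05), in the paired sums (0.195), and without libraries 1, 3 or 4 of no LPS or 3 of LPS (0.49 to 0.52, adjusted p = 0.0565 to 0.068). The LPS change was larger in low medium by 1.59 ± 0.28 in wild-type (adjusted p = 5.33e-05) and 1.16 ± 0.31 in knockout cells. Without LPS low medium lowered Col18a1 in wild-type cells, with a log2 change of -0.77 ± 0.20 (adjusted p = 0.0015, 0.0543 in the paired sums), and the knockout value was -1.73 ± 0.22. With LPS the wild-type direction was opposite, 0.82 ± 0.19 (adjusted p = 0.00076), and the knockout value was -0.57 ± 0.21, or -0.40 with RLE scaling. In the GENCODE annotation Slc19a1 lies on the other strand at the 3' end of Col18a1, and it passed the genotype test in none of 4 conditions.

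Myo1e encodes a single-headed myosin that links membranes to actin filaments. Without LPS its libraries read 87.9, 101, 112 and 101 CPM in wild-type and 26.8, 25.3, 27.3 and 27.6 CPM in knockout cells in normal medium. Cells in low medium gave 123, 94.3, 123 and 85.3 CPM in wild-type and 14.3, 23.03, 15.04 and 22.3 CPM in knockout cells. The groups were far apart there. Cells given LPS read 159.6, 196, 171 and 176 CPM in wild-type and 85.4, 84.04, 69.2 and 108 CPM in knockout cells in normal medium. For low medium with LPS the values were 357, 218, 351 and 211 CPM in wild-type and 224, 176, 172 and 137 CPM in knockout cells. In that condition the genotypes overlapped, and wild-type libraries 1 and 3 again stood above libraries 2 and 4. LPS raised Myo1e by 0.81 ± 0.19 and 1.42 ± 0.19 in wild-type cells in normal and low medium (adjusted p = 0.000647 and 4.84e-08). In the knockout the changes were 1.69 ± 0.20 and 3.24 ± 0.21, with a difference between the media of 1.54 ± 0.27. The same difference in wild-type cells was 0.61 ± 0.26 and did not pass (adjusted p = 0.0895), though it did with DESeq2 (0.69, 0.0405) and without library 4 of low medium with LPS (0.71, 0.0478). With LPS, low medium raised Myo1e by 0.69 ± 0.19 in wild-type (adjusted p = 0.00258, 0.0772 in the paired sums). In the knockout the medium changes were 1.04 ± 0.19 with LPS and -0.51 ± 0.19 without it.

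Npy, the neuropeptide, is also made by some immune cells. Without LPS its libraries read 213, 109, 133 and 133 CPM in wild-type and 36.1, 37.8, 39.9 and 40.8 CPM in knockout cells in normal medium. Low-medium readings were 32.03, 30.1, 47.1 and 36.8 CPM in wild-type and 10.03, 4.50, 8.62 and 4.94 CPM in knockout cells. Wild-type cells in low medium and knockout cells in normal medium overlapped. LPS libraries read 178, 155, 179 and 147 CPM in wild-type and 71.4, 57.1, 70.6 and 67.9 CPM in knockout cells in normal medium. The low-medium LPS libraries read 47.7, 69.8, 53.7 and 79.6 CPM in wild-type and 10.5, 4.33, 12.5 and 5.83 CPM in knockout cells. The genotypes did not overlap in any condition. Low medium lowered wild-type Npy, with log2 changes of -2.01 ± 0.23 without LPS (adjusted p = 8.95e-09) and -1.40 ± 0.23 with it (adjusted p = 7.28e-06). The knockout values were -2.50 ± 0.25 and -2.96 ± 0.27. After TMM scaling, wild-type Npy was higher with LPS in low medium by 0.78 ± 0.23 (adjusted p = 0.00434, 0.0538 in the paired sums), and the value in normal medium was 0.17 ± 0.22 (adjusted p = 0.6). That low-medium rise depends on the scaling. The counts with LPS were 144, 169, 133 and 186, in totals of 3111552 to 4547552. Without LPS they were 251, 235, 323 and 219, in totals of 4929113 to 6802071. The LPS values in the knockout were 0.79 ± 0.23 in normal and 0.33 ± 0.28 in low medium.

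Pcp4l1, the small Pcp4-like protein, was lower with LPS in both genotypes and both media. Without LPS its libraries read 31.999, 45.9, 68.6 and 49.4 CPM in wild-type and 26.9, 17.5, 19.5 and 23.6 CPM in knockout cells in normal medium. In low medium the 4 values were 38.02, 109.7, 45.2 and 97.02 CPM in wild-type and 5.62, 10.1, 5.60 and 10.2 CPM in knockout cells. Here wild-type libraries 2 and 4 were above libraries 1 and 3, the reverse of the Pcdh7 split in LPS. With LPS the values were 19.6, 18.5, 16.3 and 13.1 CPM in wild-type and 9.18, 5.69, 10.1 and 9.96 CPM in knockout cells in normal medium. Low medium and LPS together gave 17.9, 3.72, 20.6 and 7.27 CPM in wild-type and 3.40, 3.999, 3.58 and 1.94 CPM in knockout cells, on 4 to 14 counts in the latter. The genotypes overlapped in that last condition and in none of the other 3. The LPS changes were -1.52 ± 0.32 and -2.53 ± 0.35 in wild-type cells in normal and low medium (adjusted p = 0.000177 and 9.08e-08), a direction that the choice of genes favours. Neither call was lost in any alternative tried. The alternatives reuse the libraries that entered the choice, so they cannot offset it, and no support is read from these calls. In the knockout the changes were -1.30 ± 0.34 and -1.27 ± 0.43. The medium changes in the knockout were -1.44 ± 0.32 without LPS and -1.41 ± 0.44 with it. In wild-type cells the medium value without LPS, 0.57 ± 0.30, did not pass (adjusted p = 0.128), though it did without library 1 of low medium (0.81, 0.0342).

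Profiles of the 8 genes over the groups were graded rather than separate. Pearson's r over the 8 group means of log2 CPM is given as a description, since the points share the libraries and the genes were chosen by a contrast among them. Pcdh7, Myo1e, Col18a1 and Sdc1 had r between 0.80 and 0.96 among themselves, and Emp2, Npy and Itgb7 between 0.93 and 0.98, with Npy and Itgb7 nearest (0.976). Between those 2 sets r ran from 0.34 (Myo1e with Itgb7) to 0.817 (Emp2 with Col18a1), above the lowest within them, 0.797 for Pcdh7 with Sdc1. Pcp4l1 reached r of 0.73 with Itgb7 and -0.0562 with Myo1e. Over the 28 pairs r ranged from -0.0562 to 0.976 with a median of 0.66. Among 8986 genes with a mean of at least 5 CPM, those most like a member over the 8 group means were Cd9 for Npy (0.982), A230028O05Rik for Pcdh7 (0.981), the kinase gene Fgr for Myo1e (0.979), Atad3a for Col18a1 (0.975), Mical3 for Pcp4l1 (0.974), Col4a1 for Sdc1 (0.972) and Igf2r for Emp2 (0.963). For Itgb7 it was Npy, then the integrin gene Itgb2 (0.97).

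**Figure D5:**
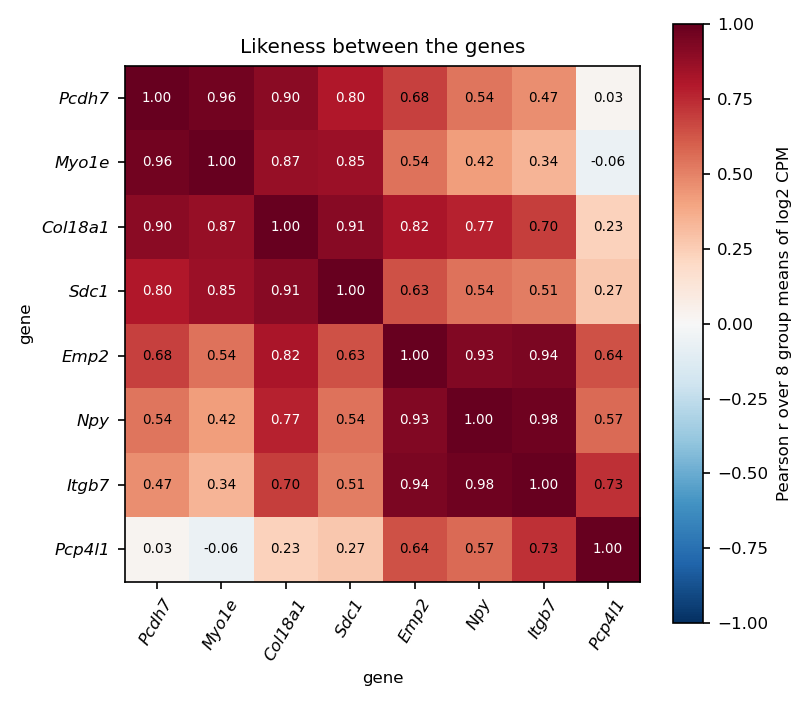
Pearson's r between each pair of genes over 8 group means of log2 CPM, on a colour scale from -1 to 1. Pcdh7, Myo1e, Col18a1 and Sdc1 range from 0.80 to 0.96 among themselves and Emp2, Npy and Itgb7 from 0.93 to 0.98, pairs between the 2 sets reach 0.817, and Pcp4l1 lies near 0 with Pcdh7 and Myo1e.

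Other genes of the same pathways were taken from 12 lists, chosen with earlier results of these data known and without the 8 members: 282 genes, of which 186 were tested. In low medium without LPS 37 of 186 were lower and 8 higher in the knockout by the edgeR test (24.2%, against 16.7% of all genes), and their median was -0.06. In normal medium 12 were lower and 3 higher (8.06%, against 1.86%), and most of these calls were lost in the paired sums, as given below. With LPS 6 were lower and 1 higher in normal medium (3.76%, against 4.04%), and 24 were lower and 13 higher in low medium (19.9%, against 19.1%). In that last comparison another scaling changed the split of all called genes, from 42.9% higher to 53.2% higher with RLE factors. By list, the shares called in low medium without LPS were 25% of integrins, 33.3% of collagen genes and 25% of matrix glycoproteins and proteoglycans. They were 20% of syndecan, glypican and heparan sulfate genes, 20% of proteases and inhibitors, and 20.5% of focal adhesion and podosome genes. Beside 16.7% of all genes, the last 3 shares are near it. Genes named below were picked mainly by smallest p and do not stand for their lists. Of the integrins 4 of 16 tested fell in low medium without LPS, among them Itgb2 and Itgam, subunits of complement receptor 3, and Itgax: Itgb2 at -0.88 ± 0.15 and Itgam at -0.94 ± 0.19 (adjusted p = 5.02e-05 and 0.000507; both lost in the paired sums, 0.068 and 0.0775). Itgax stood at -2.68 ± 0.50 without LPS (adjusted p = 0.000127). Of 18 tested collagen and collagen-processing genes 5 fell and 1 rose there, with the basement membrane collagens Col4a5 at -4.18 ± 0.37 and Col4a1 at -5.30 ± 0.64 (adjusted p = 1.01e-10 and 6.85e-08) and the collagen lysyl hydroxylase Plod2 at -3.21 ± 0.52 (adjusted p = 1.65e-05). These knockout means were 0.543, 0.249 and 0.289 CPM, near what 3 counts allow, so the fitted folds depend on few reads.

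Col4a1, Col4a5 and the cathepsin Ctsl were lower in the knockout in all 4 conditions. Without LPS in normal medium Col4a5 stood at 3.97 ± 0.493 and 11.3 ± 1.53 CPM (-1.50 ± 0.31, adjusted p = 0.00256, lost in the paired sums at 0.079). Ctsl there was -0.71 ± 0.17 (adjusted p = 0.0153), lost without knockout library 1 or 3 (0.0728 and 0.0692), and its calls in normal and low medium without LPS and in normal medium with LPS were lost in the paired sums (0.76, 0.249 and 0.272). Col4a1's normal-medium call without LPS (adjusted p = 0.024) was lost without knockout libraries 1, 3 or 4 or wild-type libraries 2 or 4 (0.0538 to 0.103), and that with LPS (adjusted p = 0.0139) without knockout libraries 2, 3 or 4 or wild-type library 2 (0.0507 to 0.0627); both were lost in the paired sums (0.211 and 0.106). Of 20 matrix glycoprotein and proteoglycan genes 5 fell in low medium without LPS, among them Spp1, osteopontin, at -1.37 ± 0.18 (adjusted p = 4.83e-07) and the collagen-binding Tgfbi at -1.33 ± 0.16 (adjusted p = 1.12e-07). Of 20 syndecan, glypican and heparan sulfate genes 2 fell and 2 rose, with Gpc1 (glypican-1) at -2.61 ± 0.40 and Hpse, the heparan sulfate-cleaving heparanase, at 1.24 ± 0.21 (adjusted p = 6.14e-06 and 3.39e-05). Of 39 focal adhesion and podosome genes 7 fell and 1 rose, led by Gsn, gelsolin, an actin-severing protein, at -0.82 ± 0.13 (adjusted p = 1.65e-05). Of 30 matrix proteases and inhibitors 4 fell and 2 rose, with Plau, urokinase, at -1.82 ± 0.29 and the protease Adam8 at -1.11 ± 0.17 (adjusted p = 1.19e-05 and 3.53e-06) and the lysosomal protease Ctsd at 0.90 ± 0.16 (adjusted p = 5.43e-05). Of 5 tested genes for processing or receiving neuropeptide Y 2 fell in low medium, among them the carboxypeptidase Cpe, at 0.076 ± 0.152 and 2.01 ± 1.39 CPM in knockout and wild-type cells (adjusted p = 0.000151). In low medium with LPS Vcam1, a ligand of integrins that hold beta 7, was higher in the knockout by 0.96 ± 0.23 (adjusted p = 0.00304, 0.0898 in the paired sums). Vcam1 also passed as higher in the knockout without LPS in both media. Those calls were lost in the paired sums (1.51 in normal and 0.97 in low medium, adjusted p = 0.256 and 0.142). Of 5 tested class I myosins 2 fell in low medium with LPS (40%, against 19.1% of all genes), and 0 passed in each of the other 3 genotype comparisons. The remaining lists are given for low medium without LPS. Of 7 tested cadherin, protocadherin and catenin genes 2 were lower (list median 0.11). Of 16 EMP, PMP22 and tetraspanin genes 2 were lower and 1 higher (median 0.30). Of 10 calmodulin and IQ-motif genes 4 were lower (median -0.13), and of 3 partners and ligands of integrin beta 7 1 was higher (median 0.29).

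The nearest tested genes on either side of the 8 members, 16 in all, were set beside them. In low medium 2 were higher (Laptm4a beside Sdc1 and Zfp740 beside Itgb7) and 3 lower without LPS, and 1 (Ccnb2, a cyclin gene beside Myo1e) was lower with LPS, against 16.7% and 19.1% of all genes. In normal medium 0 of 16 passed without LPS and 0 with it, against 1.86% and 4.04% of all genes. The Zfp740 call (0.65, adjusted p = 0.0433) was lost in most alternatives, among them RLE scaling (0.0588), the replicate block (0.0543) and the paired sums (0.298). Laptm4a lost its call in the paired sums (0.148), and Atf7ip2 beside Emp2, 1 of the 3 lower, lost its call without wild-type library 2 (0.0506).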

How the data were processed

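Poly(A) RNA of 32 libraries was primed with barcoded oligo-dT, per the labels' protocols, which mention no molecular identifiers, so counts and floors cover counting error only. The authors deposited 1 table of raw counts per Entrez gene, not normalized. STAR, HTSeq, DESeq2 and build mm10 are named in the submitters' processing notes; versions, annotation and strand setting are not given in the sources used here. Columns were assigned to groups by title. RefSeq (GRCm38.p6) gave symbols for 23969 identifiers (96.3%), which hold 99.5% of the counts.

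Counts were fitted in 1 model of 8 group means over all 32 libraries with edgeR 4.0.16 (R 4.3.3; TMM, filterByExpr, quasi-likelihood F test), with Benjamini-Hochberg adjustment over 11244 genes and a threshold of 0.05. The fit was tested on simulated counts. SE is the log2 fold change divided by the root of F. The members and gene lists were chosen with earlier results of these data known, and the members are given no p for genotype or within the knockout. Genes named from the lists came from up to 3 per list that passed a genotype contrast without LPS (low medium first) with the smallest p, and those passing all 4 genotype contrasts; also named were the genes most like each member and its nearest tested neighbours. Alternatives were RLE factors, DESeq2 1.42.0, no low-count filter, the compared groups alone, a replicate block, libraries 1 and 3 and 2 and 4 summed, and leaving out each library. RefSeq promoters (GRCm38.p6) were searched for exact letters on both strands.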

Additional observations from a re-analysis of the deposited data

Results flagged for a closer look

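Of 64 sets of 4 libraries (8 genes in 8 groups), 2 held a library apart from the other 3 by Dixon's criterion, which chance meets in about 1 set in 20. Itgb7 in the knockout in low medium with LPS read 5.34 CPM in library 4 against 2.67, 2.78 and 2.82 CPM in the others. Sdc1 in the knockout in normal medium with LPS read 6.67 CPM in library 3 against 3.71, 3.71 and 3.98 CPM.

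The LPS change differed between the media, by edgeR's test of the difference, for Col18a1 (1.59, adjusted p = 5.33e-05) and Sdc1 (1.47, adjusted p = 0.00238) in wild-type cells. In the knockout, where the choice of genes favours such a difference and no p is given, 5 genes were past the same threshold: Pcdh7 (2.07), Myo1e (1.54), Sdc1 (1.26), Emp2 (1.19) and Col18a1 (1.16). Each is a log2 difference, low minus normal medium.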

How the results depend on the processing

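No change of a single gene that passed the test turned its sign in any alternative, while the split of all called genes and some medians of all genes did turn with RLE scaling, as given here and beside the results. For the 8 genes, 65 of 80 changes within a genotype kept their side of the threshold when libraries were summed in pairs. That number was 77 with the compared groups alone, 78 each with DESeq2 and RLE scaling, and 79 without the filter. Over the fits leaving out 1 library, 736 of 768 kept their side. These totals pool wild-type comparisons with those within the knockout, which the choice of genes favours, so no support is read from them. Summing in pairs leaves fewer samples, and the cause of each lost call was not tested. It left 2 of the 8 genes called for LPS (wild-type, normal medium), 2 for the medium in wild-type cells without LPS, and 1 (wild-type) and 2 (knockout) for the difference of LPS changes. Listed genes called by genotype became 1, 20, 1 and 12 (normal, low, normal with LPS, low with LPS), and all genes called 39, 621, 43 and 485. All genes called became 2594 for LPS (wild-type, normal medium), 2969, 3539 and 3327 for the medium (wild-type, knockout, wild-type with LPS), and 853 and 1702 for the differences. With the compared groups alone, genotype in normal medium with LPS gave 27 listed and 866 of all genes, and in low medium with LPS 1037 of all. DESeq2 gave 359 of all genes in normal medium, and 17 listed and 693 of all in normal medium with LPS.

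Leaving out 1 library gave 7 to 13 listed genes by genotype in normal medium (15 with all; 9 without knockout library 1, 2 or 4 or wild-type library 1, and 7 without knockout library 3) and 144 to 188 of all genes. With LPS in normal medium it gave 4 to 8 listed genes (7 with all, 4 without knockout library 2) and 222 to 361 of all genes (454 with all; 287 and 302 without knockout library 3 or 4, 222 and 289 without wild-type library 2 or 4). RLE scaling moved the median of all genes from -0.36 to -0.25 for LPS in the low-medium knockout, from -0.10 to 0.01 and from -0.14 to 0.02 for the medium with LPS in wild-type and knockout cells, and from -0.28 to -0.11 for the knockout's difference of LPS changes.

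With the replicate number as a block, no gene among the 8 crossed the threshold, and all 8 stayed past it for the medium in knockout cells without LPS, a count from which nothing is read; listed genes called by genotype were 15, 45, 7 and 36, and all genes 196, 1795, 416 and 2073. The numbers share only a number: correlations between same-numbered libraries ranged from -0.30 to 0.27, and in genotype with LPS in normal medium each of 4 libraries correlated best with its own number (0.05 to 0.14). Where knockout counts were few (Itgb7, Sdc1, Pcp4l1, Col18a1 in low medium), depth limits the size of the differences.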
